A study of Mus musculus with 22 samples.

Results

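Hox paralog group 13 holds the genes nearest the 5′ ends of the 4 mouse Hox clusters, Hoxa13, Hoxb13, Hoxc13 and Hoxd13. Its members were taken by gene symbol, and 4 of 4 were found among the 55055 genes counted in every table, which include 39 Hox genes. RNA-seq was done on wild-type (wt) mouse embryonic stem (mES) cells and on mES cells with the genotype Hox-/-, which per the series title lack all Hox function. The labels give neither the number of clones behind each genotype nor the extent of the deletions, so genotype and cell line cannot be told apart. The 10 groups were wt and Hox-/- mES cells (2 libraries each), wt and Hox-/- endoderm cultures at 120 h (3 each), wt gastruloids treated with Chiron at 96 h and 120 h (2 each), and wt and Hox-/- gastruloids treated with Activin A at 96 h and 120 h (2 each). The medium of mES cells of both genotypes held LIF (100 ng/ml), CHIR99021 (3 µM), which inhibits GSK-3, and PD0325901 (1 µM), which inhibits MEK1/2. For endoderm, cells of both genotypes received Activin A (100 ng/ml) and CHIR99021 (3 µM). Gastruloids are free-floating aggregates of mES cells that form a body axis in culture, and their doses are not given in the labels.

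Hox genes encode homeodomain transcription factors whose order along each cluster follows the order in which they are switched on in time and from head to tail. Group 13 genes are normally the last to be activated, in the tail bud, hindgut, genital tubercle and distal limb bud, and they are known for opposing further axis extension and for repressing or replacing the activity of more anterior Hox genes. HOXA13 is needed in the hindgut, the allantois and the autopod, HOXD13 in the digits, HOXB13 in the prostate and in tail length, and HOXC13 in hair and nails.

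The members share the homeobox, the stretch of coding sequence for the DNA-binding domain, and it is shown because reads from a conserved stretch could be assigned to the wrong paralog. Each homeobox lies in exon 2 of 2, at chr6:52258928-52259107 on the minus strand for Hoxa13, and on the plus strand at chr11:96196020-96196199 for Hoxb13, chr15:102927210-102927389 for Hoxc13 and chr2:74669930-74670109 for Hoxd13 (GRCm38, GENCODE M21). Capitals mark the bases that differ from Hoxa13.
Hoxa13: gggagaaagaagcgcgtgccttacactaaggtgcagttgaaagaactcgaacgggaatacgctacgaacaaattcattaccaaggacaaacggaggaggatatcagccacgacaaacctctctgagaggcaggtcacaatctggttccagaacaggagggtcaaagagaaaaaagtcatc
Hoxb13: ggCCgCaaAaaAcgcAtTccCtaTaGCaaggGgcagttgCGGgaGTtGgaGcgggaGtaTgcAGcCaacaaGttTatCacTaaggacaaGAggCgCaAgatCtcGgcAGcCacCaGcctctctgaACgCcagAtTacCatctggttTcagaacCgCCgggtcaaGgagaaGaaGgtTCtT
Hoxc13: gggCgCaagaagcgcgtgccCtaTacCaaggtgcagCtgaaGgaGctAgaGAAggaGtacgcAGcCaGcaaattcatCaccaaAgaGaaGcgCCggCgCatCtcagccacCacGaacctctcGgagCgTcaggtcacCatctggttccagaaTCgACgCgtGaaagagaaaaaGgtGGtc
Hoxd13: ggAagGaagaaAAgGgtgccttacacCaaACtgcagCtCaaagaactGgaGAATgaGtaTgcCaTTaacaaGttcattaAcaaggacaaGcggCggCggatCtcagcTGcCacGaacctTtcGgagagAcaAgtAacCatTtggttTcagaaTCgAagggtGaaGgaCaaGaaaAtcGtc
Over these 180 bases Hoxa13 shared 77.2% with Hoxc13, 73.9% with Hoxd13 and 68.9% with Hoxb13. Among all pairs the identity ran from 67.2% for Hoxb13 and Hoxd13 to that of Hoxa13 and Hoxc13. Over the whole annotated transcripts, and not the homeobox alone, the longest run of identical bases was 12 to 16 bases, depending on the pair. No annotated gene overlapped a member in the coordinates used.

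The libraries held 9108085 to 28819301 counts. At this depth 3 counts correspond to 0.104 to 0.329 CPM, the count scaled by the library total, and a group whose libraries all held 3 counts or fewer is described as at the floor. The 7 pluripotency markers were above the floor in both mES groups, with summed levels of 5954 CPM in each wt library and 5473 to 5538 CPM in Hox-/- libraries. The 10 endoderm markers, Sox17, Foxa2 and Cer1 among them, were above the floor in all endoderm and gastruloid groups. Their sum was 976 to 991 CPM in wt endoderm and 566 to 618 CPM in Hox-/- endoderm. The labels call the endoderm cultures and gastruloids mixed cells, and in such bulk samples fewer cells of a type and less RNA per cell cannot be told apart. Nothing in the labels says whether replicates were separate cultures, so the tests measure the spread between these libraries, which may be technical.

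The levels of the members in the 10 groups fell into distinct patterns. Hoxb13 was highest in wt mES cells, Hoxd13 in wt endoderm and Hoxa13 in Hox-/- Activin A gastruloids. Hoxc13 was highest in wt mES cells and wt endoderm, which overlapped. In every wt gastruloid group each member had a mean of 1.37 CPM or less. Group means are given as mean ± SD over libraries.

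**Figure D1:**
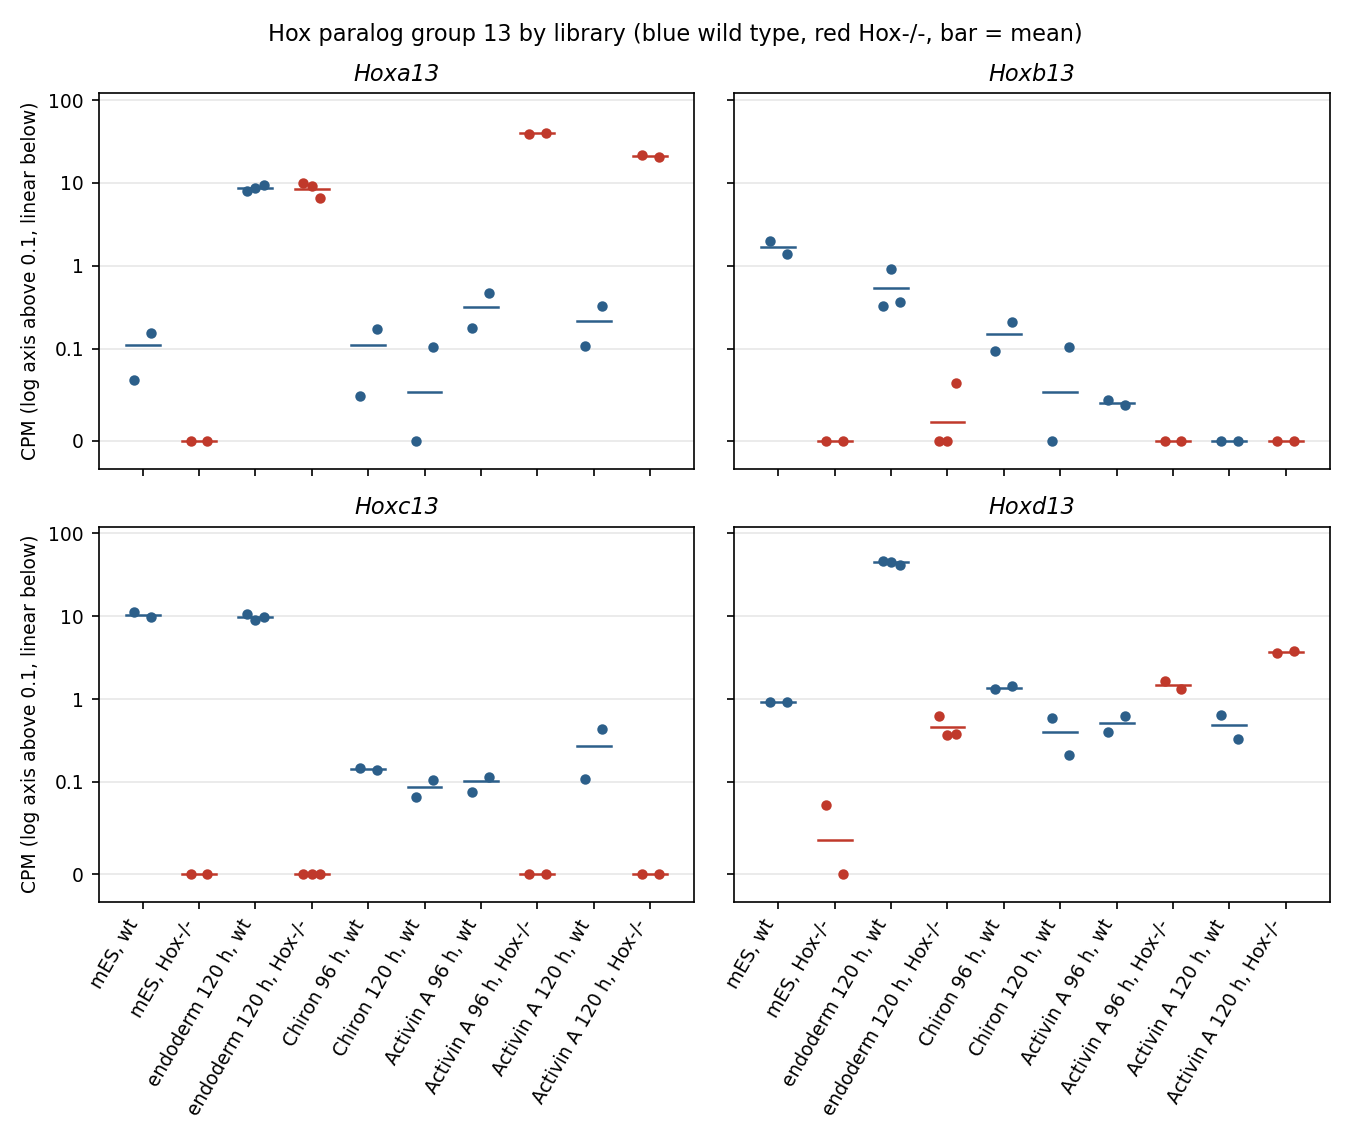
CPM of the 4 group 13 genes in each of the 22 libraries (points; vertical axis logarithmic above 0.1 and linear below) in the 10 groups (horizontal axis), with the group mean as a bar, wt in blue and Hox-/- in red. Hoxa13 is highest in Hox-/- Activin A gastruloids at 39.6 CPM, Hoxd13 in wt endoderm at 44.4 CPM, and Hoxc13 is at 0 in all Hox-/- libraries.

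Hoxc13 (ENSMUSG00000001655, chr15:102921103-102928814, plus strand) had 169 and 124 counts in the wt mES libraries (10.4 ± 1.12 CPM, n = 2). In wt endoderm it had 131, 135 and 135 counts (9.79 ± 0.863 CPM, n = 3). These groups overlapped, and the endoderm to mES difference was not called (edgeR log2 fold change -0.22, SE 0.144, adjusted p = 0.172). In the 4 wt gastruloid groups no library had more than 4 counts. All 9 Hox-/- libraries had 0 counts, which allows up to 0.119 CPM in mES cells and 0.0603 CPM in endoderm. Hoxc13 was therefore at least 88.4-fold lower in Hox-/- mES cells and at least 161-fold lower in Hox-/- endoderm (edgeR adjusted p = 1.86e-16 and 2.42e-09), with these bounds set at 3 counts over the Hox-/- group.

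Hoxb13 (ENSMUSG00000049604, chr11:96194316-96197447, plus strand) was the lowest member in wt endoderm. It had 30 and 18 counts in wt mES cells (1.70 ± 0.419 CPM, n = 2) and 4, 14 and 5 counts in wt endoderm (0.538 ± 0.335 CPM, n = 3). The wt groups did not overlap, and endoderm was lower than mES cells (edgeR log2 fold change -1.73, SE 0.437, adjusted p = 0.00139), with -2.40 without endoderm replicate 2. In Hox-/- mES cells both libraries were at 0, at least 14.5-fold lower than wt (edgeR adjusted p = 4.97e-07). In Hox-/- endoderm it had 1 count in 1 of 3 libraries. Hoxb13 did not pass the filter on low counts in the endoderm test. In the pooled counts the wt to Hox-/- ratio in endoderm was 27.8, with an exact 95% interval of 4.51 to 1144 that covers counting error only. In gastruloids Hoxb13 reached 6 counts in 1 Chiron library at 96 h and no more than 2 counts elsewhere.

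Hoxd13 (ENSMUSG00000001819, chr2:74668310-74671599, plus strand) was the most abundant member of wt endoderm. It had 14 and 12 counts in wt mES cells (0.931 ± 0.00223 CPM, n = 2) and 573, 684 and 569 counts in wt endoderm (44.4 ± 2.57 CPM, n = 3). The rise from mES cells to endoderm was called (edgeR log2 fold change 5.44, SE 0.166, adjusted p = 8.03e-17). In wt gastruloids the mean was between 0.399 and 1.37 CPM, so the level in wt endoderm was not approached by any other group. In Hox-/- mES cells it had 1 and 0 counts, and in Hox-/- endoderm 11, 6 and 6 counts (0.457 ± 0.145 CPM, n = 3). The order below wt endoderm was Hox-/- Activin A gastruloids at 120 h, the same at 96 h, Chiron gastruloids at 96 h and wt mES cells. Of these neighbours only Hox-/- Activin A and Chiron gastruloids at 96 h overlapped.

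Hoxa13 (ENSMUSG00000038203, chr6:52257694-52260880, minus strand) was at 3 counts in all in wt mES cells and at 0 in Hox-/- mES cells. It had 98, 133 and 129 counts in wt endoderm (8.71 ± 0.732 CPM, n = 3) and 175, 150 and 104 in Hox-/- endoderm (8.57 ± 1.79 CPM, n = 3). Wt Activin A gastruloids had 4 and 12 counts at 96 h (0.321 ± 0.203 CPM) and 1 and 3 counts at 120 h (0.219 ± 0.156 CPM, n = 2 each). Hox-/- Activin A gastruloids had 838 and 597 counts at 96 h (39.6 ± 0.525 CPM) and 252 and 219 counts at 120 h (21.1 ± 0.879 CPM, n = 2 each). Those 2 groups stood above both endoderm groups with no overlap, and the endoderm groups overlapped each other. Chiron gastruloids had 1 and 5 counts at 96 h and 0 and 1 at 120 h. The 6 groups below endoderm overlapped from each to the next.

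Compared per length, with the FPKM values (fragments scaled by gene length and library total) deposited by the authors, the leading member changed with the culture. In wt mES cells it was Hoxc13 at 4.37 ± 0.407 FPKM, followed by Hoxb13 at 0.776 ± 0.189 FPKM, Hoxd13 at 0.375 ± 0.00202 FPKM and Hoxa13 at 0.0750 ± 0.0298 FPKM, with no overlap between neighbours (n = 2). In wt endoderm it was Hoxd13 at 17.7 ± 0.991 FPKM (n = 3). Hoxa13 at 4.51 ± 1.21 FPKM and Hoxc13 at 4.22 ± 0.403 FPKM overlapped below it, and Hoxb13 was at 0.244 ± 0.151 FPKM. In Hox-/- endoderm Hoxa13 led at 5.46 ± 0.955 FPKM, with Hoxd13 at 0.174 ± 0.0441 FPKM (n = 3). In Hox-/- Activin A gastruloids Hoxa13 had 24.8 ± 0.704 FPKM at 96 h and 14.9 ± 1.21 FPKM at 120 h, and Hoxd13 had 0.530 ± 0.0152 and 1.27 ± 0.173 FPKM (n = 2 each).

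The genotype contrasts ask how a cell line lacking Hox function differs from wt in each culture. In mES cells 3 of 4 members passed the filter, and all 3 were lower in Hox-/-, where 10.8% of all genes tested were called lower. These 3 passed only through the wt libraries, so they could only come out lower and the tally is no support. Hoxd13 stood at 26 counts in wt against 1 in Hox-/-, a ratio of 23.5 with an exact 95% interval of 3.87 to 965 (edgeR adjusted p = 2.98e-04). The calls on Hoxb13 and Hoxd13 were lost when log2(FPKM + 1) was tested with limma (adjusted p = 0.0605 and 0.0994). In endoderm 3 of 4 members passed the filter and 2 were lower, where 23.1% of all genes were called lower. Those 2, Hoxc13 and Hoxd13, passed only through wt and could only come out lower, while Hoxa13 passed in both genotypes. Hoxd13 was 95.8-fold lower in Hox-/- endoderm (edgeR log2 fold change -6.55, SE 0.146, adjusted p = 2.61e-13), yet each of its 3 libraries kept 6 counts or more. The exact 95% interval of the pooled wt to Hox-/- ratio of Hoxd13 was 63.7 to 152. Hoxa13 did not pass the test (edgeR log2 fold change -0.01, SE 0.146, adjusted p = 0.953), and the exact 95% interval of the pooled Hox-/- to wt ratio was 0.856 to 1.14.

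In Activin A gastruloids both members that passed the filter were higher in Hox-/- at each time. Both passed only through their Hox-/- libraries, so their direction was set by the filter and the tally is no support. Among all genes, 22.2% were called higher at 96 h and 24.9% at 120 h. Of the calls on all genes 57.0% and 49.4% were higher, and 42.5% and 34.6% when libraries were scaled by total counts alone. Hoxa13 rose 119-fold at 96 h (6.92 on the log2 scale by edgeR, adjusted p = 1.50e-36, SE 0.162). The exact 95% interval of that pooled ratio was 73.2 to 209. At 120 h, against 4 counts in all in wt, the ratio of pooled Hoxa13 levels was 97.0, with an exact 95% interval of 37.6 to 357 (edgeR adjusted p = 3.20e-25). Hoxd13 had 9 and 16 counts in wt and 35 and 20 in Hox-/- at 96 h (0.510 ± 0.156 against 1.49 ± 0.211 CPM). The genotypes did not overlap, and Hoxd13 rose by 1.58 on the log2 scale (edgeR, SE 0.349, adjusted p = 2.35e-04). At 120 h Hoxd13 had 6 and 3 counts in wt and 42 and 41 in Hox-/- (0.489 ± 0.226 against 3.73 ± 0.151 CPM; log2 fold change 3.01, SE 0.411, adjusted p = 1.84e-08). Hoxb13 and Hoxc13 were at 0 in all 4 Hox-/- gastruloid libraries, and wt held at most 1 and 4 counts. Direction and call held for Hoxa13 and Hoxd13 under all 14 alternatives at each time. Over them the log2 fold change ran from 4.46 to 7.78 for Hoxa13 and from 0.38 to 2.195 for Hoxd13 at 96 h, and from 3.88 to 7.61 and 0.97 to 3.58 at 120 h, with the lowest values from log2(FPKM + 1). The highest values for Hoxa13 came without wt replicate 2 of each time.

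The difference between the 120 h and 96 h genotype effects did not pass the test for either gene, where 38.9% of genes were called. For Hoxd13 it was 1.43 on the log2 scale (SE 0.610, adjusted p = 0.0577). That value passed without a filter on low counts (adjusted p = 0.0473), without wt 96 h replicate 1 (0.0437) and in limma on log2(FPKM + 1) (0.0168). For Hoxa13 the difference was -0.26 (SE 0.894, adjusted p = 0.855), a value that rests on the 4 wt counts at 120 h.

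Other lists moved in the same gastruloid comparisons, and their part in the Hoxa13 and Hoxd13 results was not tested. All 6 caudal progenitor markers (T, Nkx1-2, Cdx2, Cdx4, Wnt3a and Fgf8) were above the floor in every gastruloid group. Their sum was 2752 to 2872 CPM in wt and 3633 to 3675 CPM in Hox-/- at 96 h, and 521 to 529 against 497 to 510 CPM at 120 h. At 120 h 4 of the 6 were called higher (Cdx4 by 2.48, Wnt3a by 1.63, Nkx1-2 by 1.02 and Cdx2 by 0.74 on the log2 scale) and T was lower (-0.78). The 6 presomitic mesoderm markers, all above the floor, summed to 162 to 163 CPM in wt and 591 to 613 CPM in Hox-/- at 120 h. The 10 endoderm markers summed to 866 to 983 CPM in wt and 301 to 304 CPM in Hox-/- at 96 h, and to 989 to 991 against 202 to 208 CPM at 120 h. Of 6 allantois markers, Pitx1 was at the floor in both groups at 96 h, and the sum was 11.2 to 13.3 CPM in wt and 13.2 to 13.4 CPM in Hox-/-. At 120 h that sum was 49.8 to 54.5 CPM in wt and 46.1 to 47.1 CPM in Hox-/-, with Foxf1 (1.199), Hand1 (1.47) and Pitx1 (1.52) called higher and Isl1 (-1.73) and Tbx20 (-2.50) lower. The 6 neural markers summed to 1.98 to 2.13 CPM in wt and 5.66 to 7.49 CPM in Hox-/- at 96 h, and to 50.8 to 52.5 against 6.12 to 7.67 CPM at 120 h. Of these, Olig2 and Dbx1 were at the floor in Hox-/- at both times, and Olig2, Neurog2 and Dbx1 in wt at 96 h.

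Time was compared within each kind of gastruloid. In Hox-/- Activin A gastruloids Hoxa13 fell and Hoxd13 rose from 96 h to 120 h, 1 of 2 members tested in each direction, where 34.9% of genes were called higher and 37.6% lower. Hoxa13 fell by 0.92 on the log2 scale (SE 0.0872, adjusted p = 2.76e-13), and Hoxd13 rose by 1.28 (SE 0.270, adjusted p = 4.22e-05). The 96 h libraries were deeper, at 14953662 to 28819301 counts against 9108085 to 11930416, and with all Activin A libraries thinned to the smallest these values were -0.86 and 1.66. In wt Activin A gastruloids neither gene passed the test, where 74.9% of genes were called (log2 fold change of Hoxa13 -0.66, adjusted p = 0.427; of Hoxd13 -0.15, adjusted p = 0.817). In Chiron gastruloids Hoxd13, the only member that passed the filter, had 27 and 41 counts at 96 h and 7 and 2 at 120 h, and it fell by 1.80 on the log2 scale (SE 0.467, adjusted p = 0.00194), where 33.2% of genes were called lower. Without Chiron 120 h replicate 1 the change was -2.78, and without replicate 2 it was -1.32. After thinning, Hoxd13 did not pass the filter in the Chiron fit, so this fall has no value at equal depth there. The rise in Hox-/- Activin A and the fall in Chiron gastruloids differed by 3.04 on the log2 scale (edgeR, SE 0.522, adjusted p = 1.31e-05, with 50.2% of genes called), and by 4.02 without Chiron 120 h replicate 1.

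Treatment was compared in wt gastruloids, where Hoxd13 alone passed the filter. At 96 h Hoxd13 was lower with Activin A than with Chiron (0.510 ± 0.156 against 1.37 ± 0.0768 CPM, n = 2 each; edgeR log2 fold change -1.46, SE 0.350, adjusted p = 9.36e-04), where 30.2% of genes were called lower. DESeq2 gave the same fold change with an adjusted p of 0.0571. At 120 h the treatments overlapped (log2 fold change 0.17, SE 0.691, adjusted p = 0.877), where 41.9% of genes were called. The difference between the times, 1.63 on the log2 scale, was not called (adjusted p = 0.109, with 39.6% of genes called).

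Chiron gastruloids elongate and give a second wt reference for the level reached in Hox-/- Activin A gastruloids. Both treatment and genotype differ between these groups. At 96 h Hoxa13 was higher in Hox-/- Activin A gastruloids (edgeR log2 fold change 8.27, SE 0.217, adjusted p = 2.01e-24), where 34.3% of genes were called higher. The exact 95% interval of the pooled Hoxa13 ratio was 149 to 887. Hoxd13 at 1.49 CPM overlapped the Chiron libraries at 1.37 CPM (log2 fold change 0.15, SE 0.288, adjusted p = 0.683). The exact 95% interval of the pooled Hoxd13 ratio was 0.756 to 1.59. At 120 h both genes were higher, where 21.7% of genes were called higher. In this fit Hoxa13 passed the filter only through Hox-/- libraries, so its direction at both times was set by the filter. Hoxa13 had 471 counts in all against 1, a ratio of 451 with an exact 95% interval of 80.6 to 17863. Hoxd13 was 8.84-fold higher, with an exact 95% interval of 4.44 to 20.001 (log2 fold change 3.18, SE 0.408, adjusted p = 1.49e-07). Without Chiron 120 h replicate 1 that log2 value was 4.16. Hoxa13 at 96 h was 9.46 without Chiron 96 h replicate 2.

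Differentiation from mES cells to endoderm was compared within each genotype. In wt, where 4 of 4 members passed the filter, Hoxa13 and Hoxd13 rose and Hoxb13 fell, against 41.6% of genes called higher and 38.3% lower. The pooled Hoxa13 level was 81.3 times that in wt mES cells, with an exact 95% interval of 27.6 to 396 (edgeR adjusted p = 5.25e-11). In Hox-/-, where 42.7% of genes were called higher, Hoxa13 was at least 72.7-fold higher in endoderm than in mES cells (edgeR adjusted p = 3.21e-11). Hoxd13 had 23 counts in Hox-/- endoderm against 1 in Hox-/- mES cells, a ratio of 11.7 with an exact 95% interval of 1.90 to 482 (edgeR adjusted p = 0.00158). A fold change of the genotype effect between mES cells and endoderm is not given, because each member had 3 counts or fewer over a group in it.

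The share of all Hox transcripts held by group 13 differed widely between groups. It was 39.8% ± 0.0854 of the summed CPM of the 39 Hox genes in wt mES cells, in which that sum was 33.1 ± 3.77 CPM (n = 2). It was 7.39% ± 0.448 in wt endoderm (n = 3) and between 0.0286% and 0.153% in the 4 wt gastruloid groups. In Hox-/- cultures it was 34.9% ± 4.60 in endoderm (n = 3), 39.8% ± 0.0891 in Activin A gastruloids at 96 h and 37.4% ± 3.35 at 120 h (n = 2 each). In Hox-/- mES cells it was 0 and 16.7% and rests on 1 count. The groups with shares near 40% reached them with different members, Hoxc13 in wt mES cells and Hoxa13 in Hox-/- cultures. The summed CPM of the 39 Hox genes was 25.8 in Hox-/- against 859 in wt endoderm. In Activin A gastruloids it was 103 against 643 at 96 h and 66.6 against 1179 at 120 h. The group 13 sum was lower in Hox-/- endoderm, at 9.05 against 63.4 CPM. In Hox-/- Activin A gastruloids that sum was higher, at 41.0 against 0.975 CPM at 96 h and 24.8 against 0.981 CPM at 120 h.

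**Figure D2:**
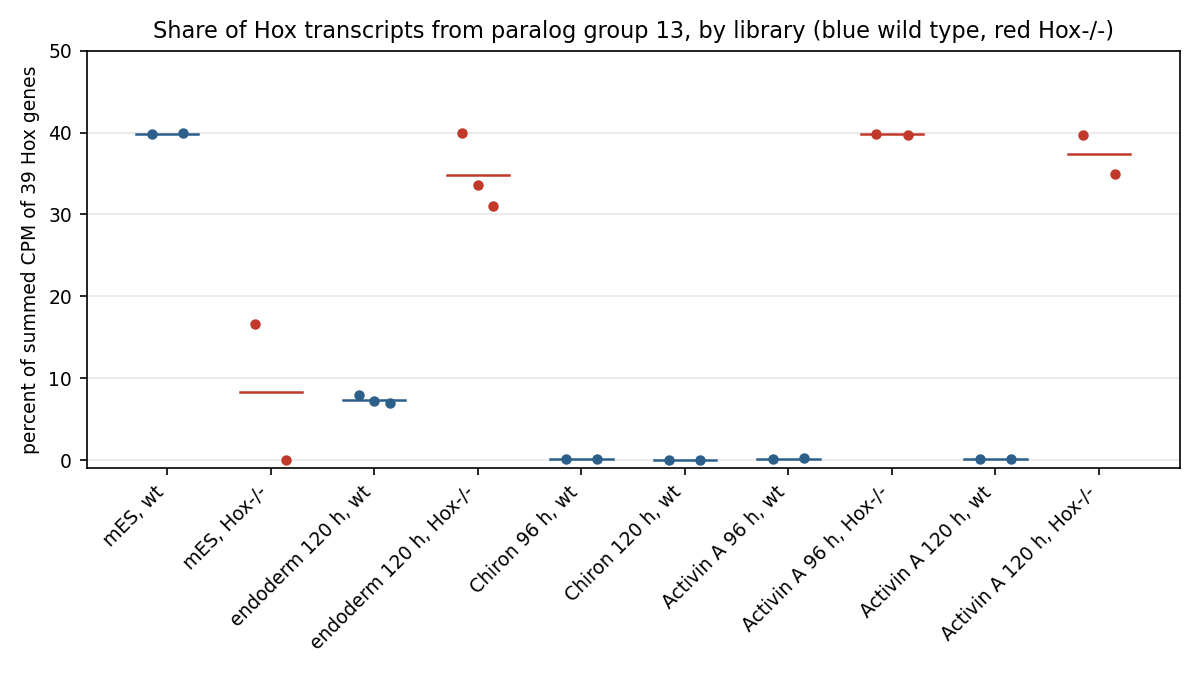
Percent of the summed CPM of 39 Hox genes that came from the 4 group 13 genes (vertical axis, linear) in each library (points, with the group mean as a bar) of the 10 groups, wt in blue and Hox-/- in red. Wt gastruloids lie at or below 0.198%, and Hox-/- endoderm and Activin A gastruloids lie between 31.1% and 40.0%.

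The neighbours of Hoxa13 and Hoxd13 within their clusters give the setting of these values. The 8 genes of groups 10 to 12 were all called lower in Hox-/- endoderm (8 of 8), where 23.1% of all genes were called lower. Each had 0 counts over the Hox-/- endoderm libraries, except Hoxc10 with 1. They passed the filter only through wt and could only come out lower, so the tally is no sign of enrichment. In Activin A gastruloids 1 of 6 tested, Hoxa10, was called lower at 96 h and 6 of 6 at 120 h. Of all genes, 38.9% and 50.4% were called in either direction. These 6 also passed the filter only through wt libraries, so a lower level was the only direction open to them. At 96 h the others tested had 0 to 2 counts over both wt libraries, so a lower level in Hox-/- could not be measured. Hoxa11, the nearest Hox gene to Hoxa13, had 388, 564 and 500 counts in wt endoderm and 0 in each Hox-/- endoderm library, at least 584-fold lower. Hoxd12, next to Hoxd13, had 52, 77 and 50 counts in wt endoderm and 0 in Hox-/-, at least 72.0-fold lower.

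**Figure D3:**
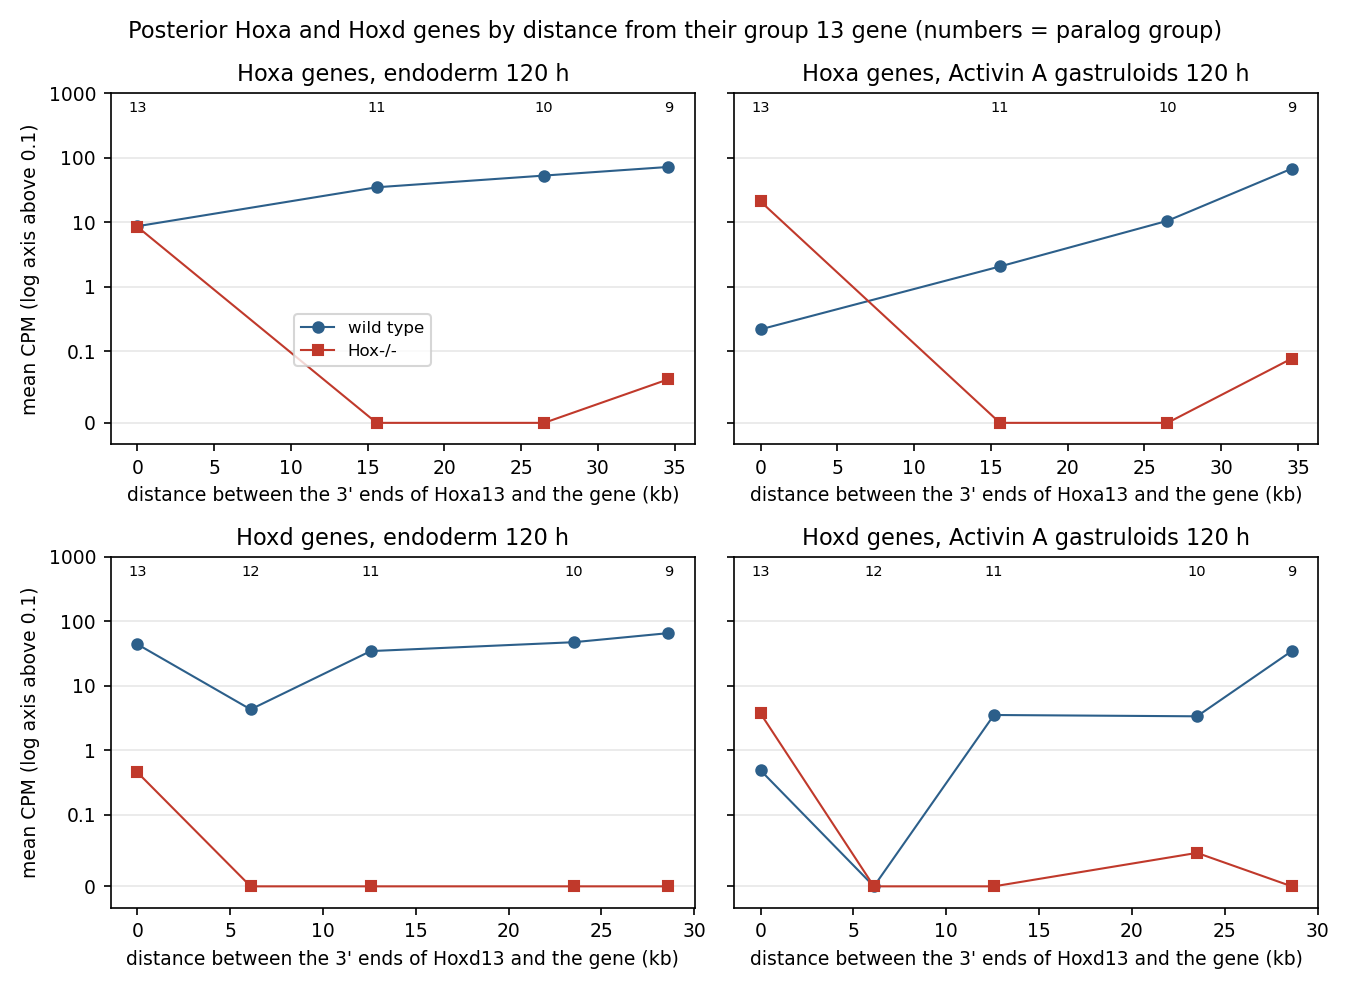
Mean CPM (vertical axis, logarithmic above 0.1 and linear below) of the Hoxa genes (top) and Hoxd genes (bottom) of paralog groups 9 to 13 against the distance in kilobases between their annotated 3′ end and that of Hoxa13 or Hoxd13, in endoderm (left) and Activin A gastruloids at 120 h (right). Blue circles are wt and red squares Hox-/-; numbers at the top give the paralog group. In Hox-/- the group 13 genes stand above the genes of groups 9 to 12 next to them, and Hoxa13 exceeds wt in gastruloids (21.1 against 0.219 CPM).

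Within 100 kb of the members lie 59 annotated genes other than Hox genes. Of the 24 that could be tested, 6 were called higher and 17 lower in Hox-/- endoderm, where 46.2% of all genes were called. In Activin A gastruloids 5 of 24 were higher and 12 lower at 96 h, and 5 were higher and 15 lower at 120 h, where 38.9% and 50.4% of all genes were called. In mES cells 3 of 7 were higher and 2 lower, where 23.2% of all genes were called. The genes lower in endoderm included the noncoding genes Hoxaas3, Hoxa11os, Haglr and Hotair, which lie between Hox genes. Calls in antisense and overlapping genes are uncertain, because the strand setting of the counting is not given in the sources used here.

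Genes beyond Hoxa13 and Hoxd13, outside the clusters, were among those higher in Hox-/-. Hottip, a noncoding RNA transcribed away from Hoxa13 on the opposite strand (chr6:52262775-52267603, 1895 bases from it), had 4, 3 and 4 counts in wt endoderm and 66, 76 and 75 in Hox-/-, a ratio of 16.3 (exact 95% interval 8.95 to 33.2; edgeR adjusted p = 8.51e-08). In Activin A gastruloids Hottip was at 0 in wt and had 32 and 12 counts at 96 h and 21 and 21 at 120 h in Hox-/-, at least 19.5-fold and 11.5-fold higher. Evx2, a homeobox gene 8753 bases from Hoxd13 (chr2:74652991-74659557, minus strand), had 1 and 0 counts in wt and 93 and 84 in Hox-/- Activin A gastruloids at 120 h, a ratio of 146 with an exact 95% interval of 25.8 to 5789. At 96 h Evx2 was at the floor in both genotypes. In Activin A gastruloids Evx1, a homeobox gene beyond Hoxa13 (chr6:52313498-52318378), had a higher level in Hox-/- at 96 h (edgeR log2 fold change 0.99, SE 0.0431) and at 120 h (1.84, SE 0.114), but its antisense partner Evx1os rose with it and their reads may not be separable.

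A short gene directly 3′ of Hoxa13 went the other way. 9530018H14Rik (chr6:52256218-52257460, same strand, 234 bases beyond the annotated end of Hoxa13), a gene model that GENCODE lists as still in need of experimental evidence, was singled out after its values were seen. It had 20, 22 and 22 counts in wt endoderm and 0 in each of the 7 Hox-/- libraries of endoderm and Activin A gastruloids. In endoderm this was at least 25.8-fold lower in Hox-/- (edgeR adjusted p = 3.10e-06), while Hoxa13 itself had 360 counts in wt and 429 in Hox-/- over the same libraries. In Hox-/- Activin A gastruloids at 96 h Hoxa13 had 1435 counts over both libraries with 0 counts of 9530018H14Rik. In wt Activin A gastruloids it had 1 count in all at 96 h and 0 at 120 h, so both genotypes were at the floor and no difference could be measured there.

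**Figure D4:**
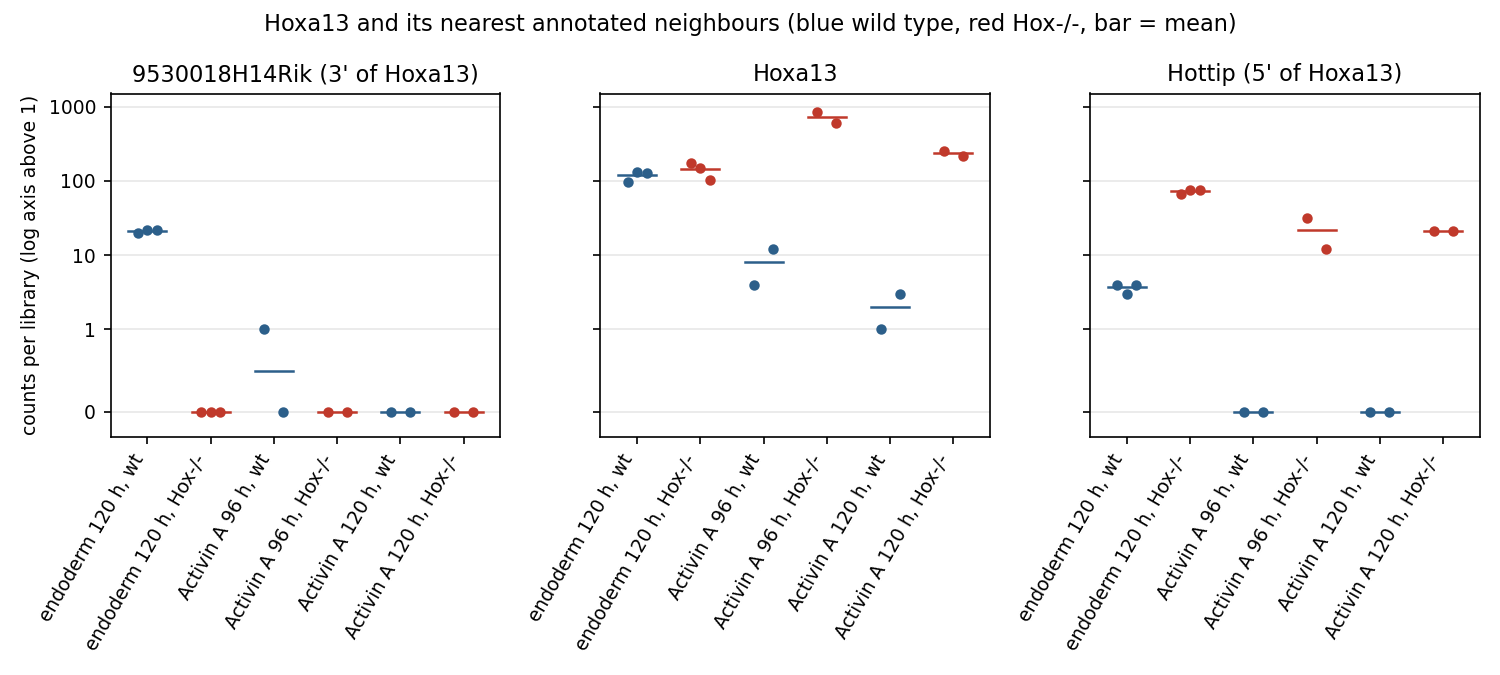
Counts per library (points; vertical axis logarithmic above 1 and linear below) of 9530018H14Rik, Hoxa13 and Hottip, in this order along the chromosome, in endoderm and Activin A gastruloids of each genotype (horizontal axis, wt blue and Hox-/- red, bar = mean). In Hox-/- the gene 3′ of Hoxa13 is at 0 while Hoxa13 has 104 to 838 counts and Hottip 12 to 76.

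Since Hoxa13 and Hoxd13 were both higher in Hox-/- than in wt Activin A gastruloids, though they changed in opposite directions over time in Hox-/-, their promoters are shown as RefSeq gives them, the 250 bases before the annotated start (GRCm38.p6, chr6:52260881-52261130 minus strand and chr2:74667975-74668224 plus strand; 2 of 4 members matched the table). Capitals mark CCAAT and TATAAA, motifs searched after the sequences were seen.
Hoxa13: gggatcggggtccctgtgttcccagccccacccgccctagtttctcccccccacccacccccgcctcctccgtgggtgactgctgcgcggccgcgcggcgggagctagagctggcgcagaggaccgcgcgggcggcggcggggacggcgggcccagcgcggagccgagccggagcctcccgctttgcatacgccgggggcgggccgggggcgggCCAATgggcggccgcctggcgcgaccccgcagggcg
Hoxd13: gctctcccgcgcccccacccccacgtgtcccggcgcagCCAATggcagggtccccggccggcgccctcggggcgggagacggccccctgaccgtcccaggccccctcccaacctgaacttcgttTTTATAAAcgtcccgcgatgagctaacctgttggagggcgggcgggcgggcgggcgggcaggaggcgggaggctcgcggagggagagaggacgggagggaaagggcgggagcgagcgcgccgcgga
Their GC content was 80.0% and 74.4%, against a median of 52.4% over 32851 promoters. CCAAT matched once in each and is held by 33.8% of all promoters on either strand. TATAAA matched the Hoxd13 promoter on both strands, at overlapping positions, and is held by 12.4% of promoters. Neither promoter held TTTATNG (9.81% of promoters), TTTACGAG (0.110%) or CTTTGAT (3.21%) on either strand.

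Genes with a known link to group 13 were examined as lists. Of 15 genes of axial elongation (Cdx, Wnt, Fgf and related genes), 11 were higher and 3 lower in Hox-/- endoderm, where 46.2% of all genes were called, with a median log2 fold change of 0.48 against 0.00 over all genes tested. In Activin A gastruloids 11 of 15 were higher and 1 lower at 96 h (median 0.52, all genes 0.03), and 8 were higher and 2 lower at 120 h (median 0.54, all genes -0.02), where 38.9% and 50.4% of all genes were called. Cdx1, a caudal homeobox activator of Hox genes, rose by 1.61 and 3.66 on the log2 scale at the 2 times (edgeR adjusted p = 1.10e-33 and 1.00e-35). Cyp26a1, which breaks down retinoic acid, fell by 2.00 and 1.82, and Wnt5a rose by 0.98 at 120 h. In mES cells, 5 of 10 tested were lower, Cdx2 (-2.50) and T (-1.51) among them, and none was higher. Of all genes, 23.2% were called there and 10.8% were called lower.

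Of 10 genes reported as targets of HOX13 proteins in other tissues, 5 were higher and 3 lower in Hox-/- endoderm, and 2 of 9 tested were higher and 4 lower at 96 h of Activin A treatment. At 120 h 3 of 9 were higher and 4 lower (median log2 fold change 0.22). Of all genes 46.2%, 38.9% and 50.4% were called in these 3 comparisons. Aldh1a2, which makes retinoic acid, was lower at 96 h (-1.55, SE 0.0685) and higher at 120 h (1.27, SE 0.0493). Bmp2 and Bmp7, which encode BMP ligands, were lower at both times, Bmp2 by -1.51 at each and Bmp7 by -0.96 and -1.19. Epha7, an ephrin receptor, was higher in endoderm (1.43, SE 0.0955) and lower in gastruloids at 120 h (-0.84, SE 0.110). The list thus held no common direction in these counts.

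By the correlation of group means of log2(CPM + 0.5) over the 10 groups, among 17401 genes, the gene most like Hoxc13 was its cluster neighbour Hoxc12 (Pearson r 0.991, Spearman rho 0.823). Hoxc12 had 62 and 54 counts in wt mES cells and 85, 92 and 102 in wt endoderm, and was at 0 in all Hox-/- libraries. Hoxb13 was most like Uba1y (0.972) and then Hoxc13 (0.914). Hoxd13 was most like Hoxd12 (0.893, rho 0.467) and 9530018H14Rik (0.883, rho 0.178). Hoxa13 was most like Gbp10 (0.918), Pcdh12 (0.888), Rgs4 (0.876), Cyp4x1 (0.874) and Pcdhga10 (0.864), none of them a Hox gene. These correlations are a description over 10 points that share culture and genotype.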

How the data were processed

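Poly(A) RNA of 22 libraries was made into stranded libraries and sequenced, as the labels' protocols state. Per the submitters' processing notes, cutadapt 1.16, STAR and Cufflinks 2.2.1 and the build mm10 were used; the counting tool and its strand setting are not given in the sources used here. The deposited count tables hold whole read counts per Ensembl gene with no normalization, and the tables of FPKM deposited by the authors hold values scaled by length and library total, with gene symbols and positions. The 4 wt Activin A libraries stand in both gastruloid tables and were used once.

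Counts were tested with edgeR 4.0.16 in R 4.3.3 (filterByExpr, TMM scaling, glmQLFit and glmQLFTest, one coefficient per group), with Benjamini-Hochberg adjustment over all genes tested; a gene is called where its adjusted p is below 0.05. Each table was fitted alone, and contrasts across tables on joined raw counts. The SE given is the absolute log2 fold change divided by the square root of the F statistic of its test. Where a group has few counts, this SE can be smaller than counting error alone. CPM is the count over the library's total gene count. Ratios near 0 counts are of pooled counts, with exact conditional binomial intervals at 95%; bounds use 3 counts over the group. Intervals and floors cover counting error only. Scaling by total counts alone moved the median log2 fold change of all genes from -0.02 to -0.13 in Activin A gastruloids at 120 h and from 0.07 to 0.18 in the wt endoderm contrast. The fits, except the joint fit of mES, endoderm and Activin A libraries, were also run on simulated counts. Only well-counted genes were changed there, so the simulation does not cover members near 0 counts.

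Named genes were every member in each contrast, called list genes of smallest p, called neighbours within 100 kb, and the 5 genes of highest Pearson r per member; not all are printed. The members, lists and tests were chosen with earlier results of these data known. Alternatives were other scalings (RLE, total counts, Hox genes left out), filters (none, at least 10 counts), DESeq2 1.42.0, a replicate block, limma 3.58.1 on log2(FPKM + 1) and log2(FPKM + 0.1), fits of only the groups compared, thinned counts and each library left out. The differences of genotype effects between cultures, and of time effects between Hox-/- Activin A and Chiron gastruloids, were chosen after seeing the data.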

Additional observations from a re-analysis of the deposited data

Results flagged for a closer look

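The genotype effect on Hoxa13 and Hoxd13 differed between endoderm and Activin A gastruloids, as tested by the difference of the 2 effects in a joint edgeR fit of mES, endoderm and Activin A libraries. For Hoxa13 the effect in gastruloids minus that in endoderm was 6.92 on the log2 scale at 96 h (SE 0.273, adjusted p = 2.06e-17) and 6.67 at 120 h (SE 0.398, adjusted p = 5.17e-14). The second value rests on 4 counts in all in wt at 120 h. Without wt Activin A replicate 2 of the same time they were 7.78 and 7.62. For Hoxd13 it was 8.13 at 96 h (SE 0.406, adjusted p = 1.06e-15) and 9.57 at 120 h (SE 0.398, adjusted p = 5.36e-18), since Hoxd13 was lower in Hox-/- endoderm and higher in Hox-/- gastruloids. Of all genes, 23.4% were called in the difference at 96 h and 31.7% at 120 h.

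The change of Hoxd13 from 96 h to 120 h differed between Hox-/- Activin A gastruloids, where it rose, and wt Chiron gastruloids, where it fell, by 3.04 on the log2 scale (edgeR, SE 0.522, adjusted p = 1.31e-05, with 50.2% of genes called). Genotype and treatment both differ there and cannot be told apart. The 96 h libraries were deeper, and with counts thinned to the smallest library the difference was 3.11. Leaving out single libraries gave 2.56 to 4.02, the highest without Chiron 120 h replicate 1 and the lowest without replicate 2.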

How the results depend on the processing

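Of 26 called member contrasts, 23 kept direction and call under every alternative that could be fitted. The other 3 were lost in 1 alternative each. Limma on log2(FPKM + 1) gave log2 differences of -0.82 for Hoxb13 (adjusted p = 0.0605) and -0.44 for Hoxd13 (0.0994) in mES cells, and DESeq2 gave -1.46 for Hoxd13 between treatments at 96 h (0.0571). Limma on log2(FPKM + 1) called 3 further differences: genotype by time for Hoxa13 (-0.58) and Hoxd13 (0.59), and treatment by time for Hoxd13 (0.40). Genotype by time for Hoxd13 was also called without a filter (1.51). Members called were then 1 in mES cells, 2 and 1 for genotype by time, 1 for treatment by time and 0 between treatments at 96 h; without single libraries the genotype by time count was 0 to 1. Uncalled values changed sign: Hoxa13 in endoderm by genotype (0.24 and 0.29 in the FPKM fits, -0.13 to 0.14 without single libraries), Hoxd13 between Hox-/- Activin A and Chiron gastruloids at 96 h (-0.00267 and -0.00637 in the FPKM fits, -0.045 thinned, -0.030 to 0.27 without single libraries), and Hoxd13 over time in wt Activin A gastruloids (0.75 thinned, -0.72 to 0.26 without single libraries). Without single libraries, genotype by time ran from -1.12 to 0.70 for Hoxa13 and from 1.03 to 2.00 for Hoxd13, time in wt Activin A from -1.61 to 0.20 for Hoxa13, and treatment at 120 h from -0.39 to 1.14 for Hoxd13.

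Of all genes, those called in mES cells numbered 1098 under DESeq2, 272 and 372 in limma on log2(FPKM + 1) and log2(FPKM + 0.1), and 1477 to 3372 without single libraries, against 3168. By genotype in Activin A gastruloids at 96 h they numbered 3647, 2943 and 2787 against 6546, and log2(FPKM + 0.1) gave 4264 for genotype by time and 6670 for treatment at 96 h. With summed FPKM the group 13 share was 36.3% in wt mES cells, 6.71% and 40.9% in wt and Hox-/- endoderm, 0.0769% in Chiron gastruloids at 96 h, 0.0649% in wt Activin A at 120 h, and 46.2% and 45.9% in Hox-/- Activin A gastruloids at 96 h and 120 h. Of the 5 genes most like each member, Spearman's rho kept 1, 1, 1 and 0 for Hoxa13, Hoxb13, Hoxc13 and Hoxd13. The cause of these changes was not tested. Members that an alternative's filter removed have no value there.

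Residual correlations of same-numbered libraries ran from -0.14 to 0.12, the highest above the threshold of 0.1 set for a replicate block. With 2 or 3 libraries a group, this check cannot exclude that the numbers pair them. With a replicate block Hoxd13 in Activin A gastruloids gave 1.58 at 96 h and 3.01 at 120 h, Hoxa13 gave 6.92 and 6.66, and no member's call changed.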
